A study of Mus musculus with 125 samples.

Results

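Processed pseudogenes of ribosomal protein genes were followed in single 2-cell mouse embryos, each beside the gene it was copied from. They were taken as the rows of the deposited table whose symbol starts with Rpl or Rps and ends in -ps, with or without a number, and whose mean level over all kept embryos was at least 1 CPM (the count of a row divided by the total of its library and multiplied by 1000000). In all, 91 rows met both conditions, out of 263 rows with such a symbol and 43421 rows in the table. The other 172 rows with such a symbol were under the minimum, 3 of them with no count in any kept embryo. The copies were thus chosen by their mean level over all groups, which is given here as a description only. The copies nearest to the minimum on its upper side were Rpl21-ps11 at 1.024 CPM, Rpl23a-ps2 at 1.009 CPM and Rps18-ps3 at 1.007 CPM. Next below it were Rps12-ps4 at 0.995 CPM, Rps15a-ps5 at 0.991 CPM and Rps23-ps2 at 0.986 CPM. The symbol without its ending gave the parent gene, so the 91 copies had 45 parents.

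The ribosome is built of RNA and of proteins of a small subunit (Rps) and a large subunit (Rpl). Messenger RNAs of these proteins are abundant, and the enzymes of the LINE-1 retrotransposon have copied them back into the genome many times. Such a processed pseudogene has no introns, carries no promoter of its own from the parent, and is close in sequence to the parent's mRNA, so short reads can be hard to place on one or the other. In the mouse 2-cell embryo the embryonic genome is activated while RNA stored in the oocyte is lost.

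The study asked how embryos from zygotes with separate parental pronuclei compare with others, by RNA-seq of single 2-cell embryos in 7 groups. In the BJ groups the strain is given as C57BL/6 x JF1/Ms and in the JB groups as JF1/Ms x C57BL/6. C57BL/6 is a standard laboratory strain and JF1/Ms is an inbred strain of Japanese fancy mice. Embryos from zygotes with 1 pronucleus that the submitters called parthenogenetic in silico are named uni1PN here (4 JB uni1PN and 8 BJ uni1PN embryos). Parthenotes were made from C57BL/6 alone (31 embryos), and how the oocytes were activated is not stated in the labels. The remaining groups were 3 JB 1PN and 11 BJ 1PN embryos, from zygotes with 1 pronucleus and no such call, and 21 JB 2PN and 43 BJ 2PN embryos, from zygotes with 2 pronuclei. By the labels, all zygotes were selected 10 h after fertilization, lost their second polar body to a micromanipulator, and gave embryos collected at 34 h. Neither the mother's strain nor the sharing of parents among embryos is stated in the labels, and the p-values cover no more than embryo-to-embryo spread, part of which may be technical.

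Library totals ran between 533276 and 4887274 counts with a median of 3392406, and 6 libraries were under 1500000 (1 JB uni1PN and 5 JB 2PN). Of the 9 markers of the 2-cell embryo found in the table, all 9 had a mean of at least 1 CPM in every group. JB uni1PN embryos 1 and 2 stood apart, with 52.9 and 197 CPM summed over these markers, against 7310 and 5700 CPM in JB uni1PN embryos 3 and 7. The summed CPM of 9 oocyte markers was 4240, 6680, 2520 and 2110 in JB uni1PN embryos 1, 2, 3 and 7, and its medians were 1660 in BJ uni1PN embryos, 1110 in parthenotes, 692 in JB 2PN embryos and 814 in BJ 2PN embryos. Cumulus cell markers had medians of 0.459 CPM in JB uni1PN embryos, 27.7 in BJ uni1PN embryos, 30.4 in parthenotes, 2.76 in JB 2PN embryos and 7.23 in BJ 2PN embryos, and 8 of the 10 were at 0 in every JB uni1PN embryo. Red cell markers had medians of 1.12, 27.5, 50, 1.83 and 11 CPM in the same order of groups, from 3 of 5 markers found. The part of these markers in the results below was not tested. Levels in JB uni1PN embryos are given embryo by embryo, and counts of called copies that rest on them are repeated without embryos 1 and 2.

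By position in RefSeq's GRCm38.p6 annotation, the 91 copies lay on 19 chromosomes, 5 of them on X, and only 4 lay on the chromosome of their parent. They were 298 to 1850 bp long (median 554 bp), 26 lay inside a coding gene, 5 inside a long noncoding RNA gene only, and 60 in no other annotated gene. 40 were copies of small-subunit genes and 51 of large-subunit genes. The 12 most abundant copies held 49.8% of the 733 CPM that the 91 means add up to, 23 copies reached 10 CPM and 44 stayed under 3 CPM. The median copy had 2.26% of its parent's counts, with a range of 0.395% to 70.0%, and 9 copies exceeded 25%. Rps13-ps2, the most abundant copy, is at chr7:88530403-88530924 (522 bp), outside any annotated gene, with a mean of 60.7 CPM over all embryos.

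To show the surroundings of a copy and of its parent, 2 start windows are printed for the small-subunit gene Rps13, which has 3 copies among the 91. No copy has a start window of its own in the RefSeq table, but the window of Taf1c, which encodes a subunit of the factor that starts rRNA transcription, overlaps one end of Rps13-ps4 (chr8:119602130-119602645). In the first sequence (chr8:119602597-119602896, minus strand of GRCm38.p6) capitals mark the 49 bases that belong to Rps13-ps4. In the second (chr7:116334141-116334440, minus strand) capitals mark the 50 transcribed bases at the start of Rps13.
Taf1c start window: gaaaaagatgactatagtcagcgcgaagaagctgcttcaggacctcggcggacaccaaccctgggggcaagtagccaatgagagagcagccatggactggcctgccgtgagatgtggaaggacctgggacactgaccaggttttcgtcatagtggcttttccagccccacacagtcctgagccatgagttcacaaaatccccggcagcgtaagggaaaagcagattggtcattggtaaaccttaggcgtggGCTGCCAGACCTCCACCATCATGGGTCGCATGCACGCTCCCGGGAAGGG
Rps13 start window: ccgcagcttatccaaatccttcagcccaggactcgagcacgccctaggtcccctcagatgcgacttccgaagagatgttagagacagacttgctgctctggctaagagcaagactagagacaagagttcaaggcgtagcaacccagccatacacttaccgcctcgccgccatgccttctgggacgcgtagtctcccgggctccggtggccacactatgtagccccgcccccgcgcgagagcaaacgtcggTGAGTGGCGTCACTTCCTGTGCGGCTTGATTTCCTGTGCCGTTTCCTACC
The stretches in capitals are no alignment of copy and parent. The longest run of bases that both windows hold on this strand was 8 bases, which says only what these letters share. Of the 45 parents, 34 have such a window in the RefSeq table, which spans 250 bases before and 50 after the start.

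Many of the deposited counts are not whole numbers, so reads can have been counted in part. Of the values above 0, 43.1% were not whole for the 91 copies, 57.4% for their 45 parents, 46.5% for other rows ending in -ps with at least 1 CPM, and 28.5% over all rows. Of the copies' values that were not whole, 75.4% lay midway between 2 whole numbers. Single copies differed widely in this respect. Rpl9-ps2, Rpl36-ps1 and Rpl30-ps6 held a fraction in none of their values, Rps19-ps8 in 1.01%, Rpl19-ps3 in 2.15% and Rpl26-ps6 in 4.85%. At the other end, Rpl19-ps1 held one in 88.1% of its values, Rpl19-ps6 in 83% and Rpl19-ps11 in 81.7%. In all, 6 copies were under 10%, 13 between 10% and 30% and 72 at 30% or more.

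The sum of a copy and its parent was also examined, since it would be whole if both divided the same reads among themselves alone. Among the 83 copies with at least 10 embryos at a fraction, the sum with the parent came within 0.01 of a whole number in at least 75% of those embryos for 2 copies, in 25% to 75% for 66 and in under 25% for 15. The 2 copies were Rpl14-ps1, whose sum with Rpl14 was whole in 54 of 55 such embryos, and Rpl36a-ps2, whose sum with Rpl36a was whole in 38 of 48. The next best row reached 40 of 55 for Rpl14-ps1 and 32 of 48 for Rpl36a-ps2. Rpl36-ps8 was whole with its parent Rpl36 in 16 of 44 such embryos, but with another row, Gm5745, in 44 of 44. For Rps13-ps2 and Rps13 the sum was whole in 28 of 61 such embryos, while another row, Pdss1, reached 41 and the median over all rows compared was 10. A share between 25% and 75% alone thus does not show reads shared with the parent. How reads were divided among rows, and with which annotation and strand setting, is not given in the sources used, and levels of copies that share reads are uncertain.

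Summed over the 91 copies, the level was lower in every uniparental group. It was 165, 203, 534 and 318 CPM in JB uni1PN embryos 1, 2, 3 and 7, 482.9 ± 155.4 CPM (SD, n = 8) in BJ uni1PN embryos and 513.9 ± 103.8 CPM (SD, n = 31) in parthenotes. It was 912.4 ± 174.4 CPM (SD, n = 3) in JB 1PN, 811.3 ± 156.8 CPM (SD, n = 11) in BJ 1PN, 823.0 ± 295.5 CPM (SD, n = 21) in JB 2PN and 899.6 ± 180.2 CPM (SD, n = 43) in BJ 2PN embryos. As a percentage of the summed level of the 45 parents, the copies made up 10.9 ± 2.98% in BJ uni1PN embryos, 9.54 ± 1.48% in parthenotes, 9.82 ± 2.46% in JB 2PN embryos and 9.81 ± 0.862% in BJ 2PN embryos (SD). The JB uni1PN group had the highest mean share, 16 ± 4.16% (SD, n = 4), with 11.1% and 20.3% as its lowest and highest values. Single embryos of other groups reached such shares too, up to 16.65% in BJ uni1PN, 19.65% in JB 2PN and 15.76% in parthenotes. The summed parents of these embryos were low, at 1457, 2389 and 2612 CPM. In the JB uni1PN group 12, 4, 0 and 2 of the 45 parents and 57, 50, 22 and 29 of the 91 copies had no count in embryos 1, 2, 3 and 7. CPM is a share of a library, so less RNA of a gene in an embryo and more RNA of other genes cannot be told apart.

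**Figure D1:**
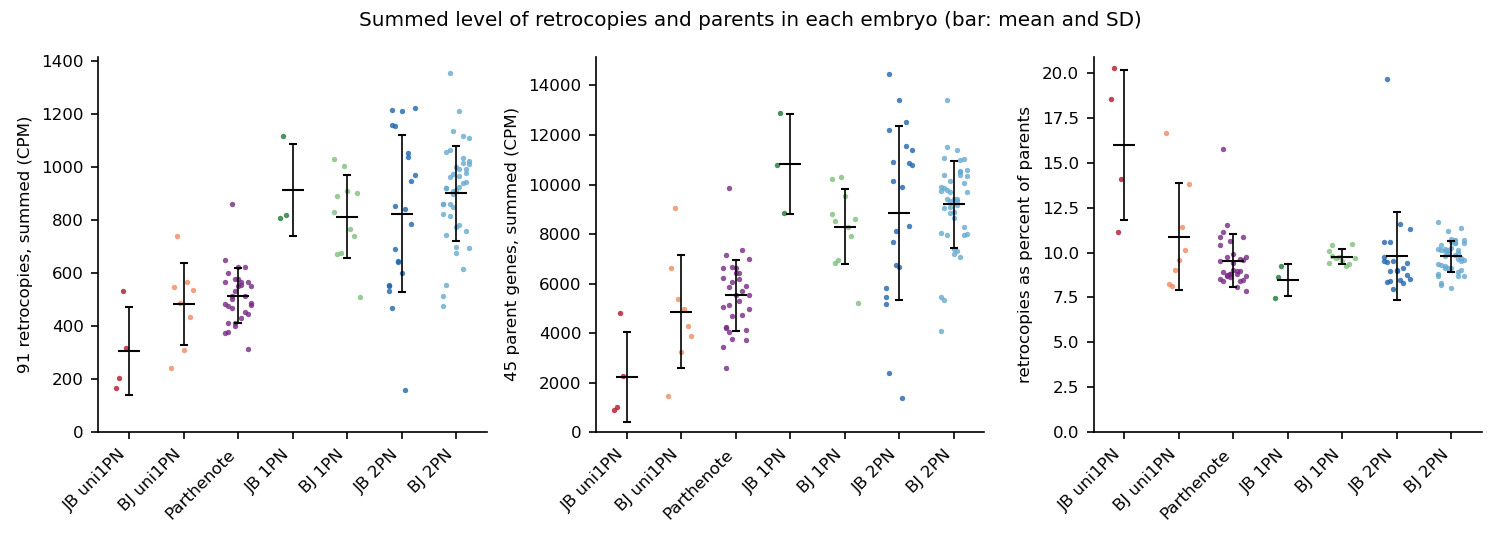
Summed level of the 91 copies (left, CPM), of the 45 parents (middle, CPM) and the copies as a percentage of the parents (right) in each embryo, by group. Points are embryos and bars the mean with 1 SD. Copies and parents were both lower in uniparental groups, while the mean percentage was 8.46 to 10.9 in every group but JB uni1PN. Single embryos of other groups fell within the range of JB uni1PN embryos.

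In uni1PN against 2PN embryos over both crosses, most copies fell, and so did most parents. A copy was called where edgeR's quasi-likelihood test gave a p-value under 0.05 after Benjamini-Hochberg adjustment over all rows tested. Of the 91 copies, 53 fell and 0 rose, with a median log2 difference of -1.0, while 15.8% of all 22785 rows tested fell, 18.3% rose (34.1% in either direction) and the median over all was 0.19. At an unadjusted p under 0.05 the same edgeR test had 61 lower and 1 higher, and DESeq2 called 55 lower and 1 higher. Of the 45 parents 40 fell and 0 rose (median -1.24), and of 79 cytosolic ribosomal protein genes 74 fell and 0 rose. Without JB uni1PN embryos 1 and 2, 41 copies fell and 0 rose.

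Rps16-ps2, a copy of the small-subunit gene Rps16 inside Adgrd1, shows the common course. Its level was 3.98, 6.11, 12.4 and 3.99 CPM in JB uni1PN embryos 1, 2, 3 and 7 and 4.88, 19.5 and 37.7 CPM (lowest, median, highest) in BJ uni1PN embryos. It was 2.91, 24.8 and 55.1 CPM in JB 2PN embryos and 17.7, 32 and 78.6 CPM in BJ 2PN embryos. The log2 difference between uni1PN and 2PN was -1.16 ± 0.24 (SE, edgeR adjusted p = 0.000126), close to -1.19 for Rps16. As a percentage of Rps16 it was 12.5, 14.1, 14.6 and 12.1 in JB uni1PN embryos 1, 2, 3 and 7, 14.6 ± 2.43 in BJ uni1PN, 15.4 ± 2.98 in JB 2PN and 14.4 ± 1.84 in BJ 2PN embryos (SD). Rps10-ps2, the copy of Rps10 on chromosome 16, was alike, at 22.9 ± 4.37% of its parent in BJ uni1PN and 25 ± 5.02% in BJ 2PN embryos, and at a level 1.24 lower on the log2 scale in uni1PN than in 2PN embryos (edgeR adjusted p = 3.64e-05).

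Parthenotes, set against BJ 2PN embryos, gave a similar split, and this comparison shares its BJ 2PN embryos with the one above. Of the 91 copies, 49 fell and 5 rose, with a median log2 difference of -0.70, where 19.6% of all 24380 rows fell, 24.8% rose (44.4% in either direction) and the median was 0.19. Of the parents 41 fell and 0 rose. The 5 copies that rose were Rpsa-ps12, Rpsa-ps4, Rpl32-ps, Rps19-ps8 and Rps2-ps10, the last of them named after its value was seen. Rpsa-ps12, a copy of the gene of the laminin receptor and small-subunit protein Rpsa, had 0, 3.37 and 20.4 CPM in parthenotes (lowest, median, highest), against 0, 0.319 and 5.17 CPM in BJ 2PN embryos. Its log2 difference was 2.21 ± 0.47 (SE, edgeR adjusted p = 4.19e-05), although the ranges overlapped and 11 of 43 BJ 2PN embryos were at 0. Rps19-ps8, in which hardly any value holds a fraction, had 0, 8.63 and 23.2 CPM in parthenotes and 0, 2.49 and 7.70 CPM in BJ 2PN embryos, with a log2 difference of 1.53 ± 0.36 (SE, edgeR adjusted p = 0.000259). Its parent Rps19 fell by 0.93 on the log2 scale in the same comparison (edgeR adjusted p = 2.47e-05).

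To separate a copy from its parent, its count was tested with the parent's count in place of the library size, so that a log2 difference of 0 means the copy moved by the same factor as its parent. Over the 227 pairs of a -ps row and its parent, 32.2% differed in uni1PN against 2PN embryos, 21.1% upward and 11% downward. Of the 91 copies, 28 were higher relative to the parent and 12 lower, with a median of 0.09. Without JB uni1PN embryos 1 and 2 there were 23 higher and 12 lower. In parthenotes against BJ 2PN embryos 52.0% of the pairs differed (26.4% higher, 25.6% lower), and of the 91 copies 36 were higher and 20 lower relative to the parent (median 0.25). In uni1PN embryos copy and parent were both called lower in 48 of 91 cases. They were both called in opposite directions in 0, which had to be so, since no copy and no parent was called higher there. Only the copy was called in 5, only the parent in 30 and neither in 8. Most parents were called lower in uni1PN embryos and in parthenotes, so a called copy would often meet a called parent in any case. A copy that was not called could still differ in sign from its parent, as Rpl19-ps3 did (1.38 against -1.95 for Rpl19). In parthenotes both were called the same way in 48 and in opposite directions in 5, only the copy in 1, only the parent in 32 and neither in 5. Of the 6 copies with a fraction in under 10% of their values, 5 were higher relative to the parent and 0 lower in uni1PN embryos, and 4 and 0 in parthenotes. The crosses differed here, with 5 higher and 0 lower within BJ (median 2.65) but 1 and 0 within JB (median -5.49). In level, 4 of the 6 fell within JB. All of them but Rpl19-ps3 were at 0 in every JB uni1PN embryo, so that JB median rests on fitted values.

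**Figure D2:**
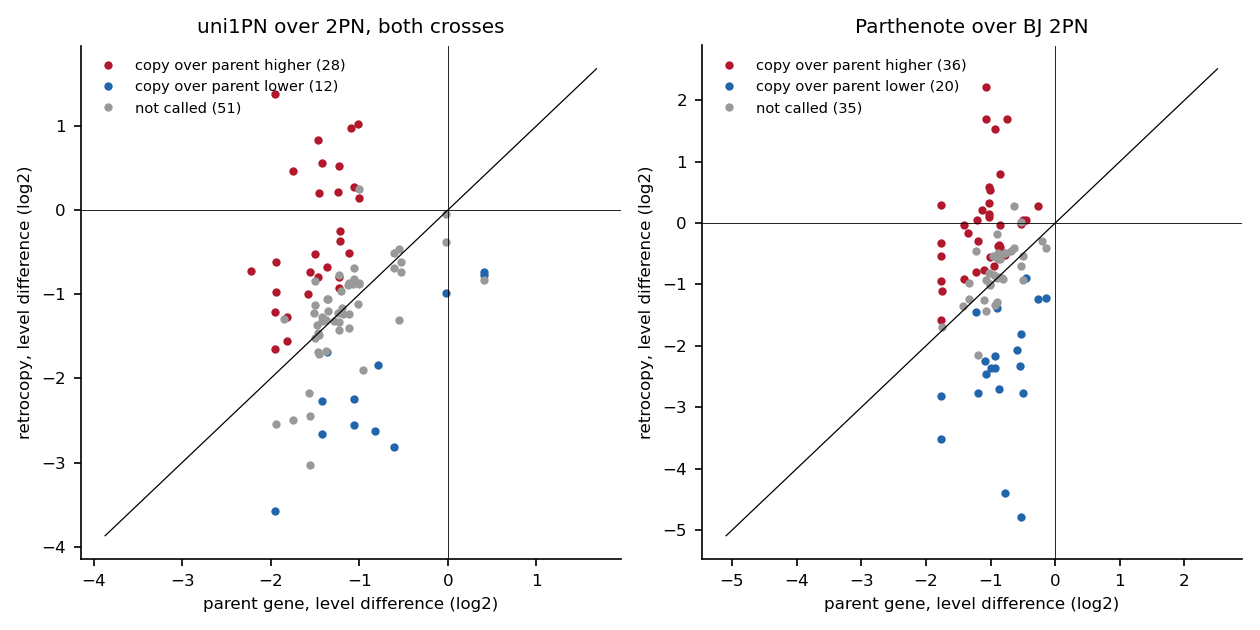
Log2 level difference of each of the 91 copies (vertical axis) against that of its parent (horizontal axis), for uni1PN over 2PN embryos (left) and parthenotes over BJ 2PN embryos (right). Points on the diagonal moved by the factor of the parent, colours mark copies called higher (28 left, 36 right) or lower (12 left, 20 right) relative to the parent.

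Rps13-ps2 was the copy with the lowest p relative to its parent in parthenotes. It had 26.3, 62.0 and 131 CPM in parthenotes (lowest, median, highest), against 13.3, 60.5 and 216 CPM in BJ 2PN embryos. Its parent Rps13 had 40.8, 105 and 268 CPM in parthenotes and 103, 320 and 523 CPM in BJ 2PN embryos. The copy's level did not pass the test, at a log2 difference of -0.33 ± 0.19 (SE, edgeR adjusted p = 0.152), while Rps13 fell by 1.76 (edgeR adjusted p = 1.5e-13). The copy was 62.1 ± 16% of Rps13 in parthenotes and 20.2 ± 4.80% in BJ 2PN embryos (SD), a log2 difference of 1.61 ± 0.09 (SE, edgeR adjusted p = 1.51e-32). The highest BJ 2PN value, 41.3%, was just above the lowest parthenote value, 39.4%. BJ uni1PN embryos were like the parthenotes, at 57.4 ± 26.2 CPM and 53.4 ± 14.5% of Rps13 (SD, n = 8).

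The same copy was almost absent from JB uni1PN embryos. Rps13-ps2 had 0.265, 0, 0.653 and 0 CPM in JB uni1PN embryos 1, 2, 3 and 7, against 23.4, 53.2 and 104 CPM (lowest, median, highest) in BJ uni1PN embryos. The ranges lay far apart, although Rps13 itself was present at 19.9, 12.9, 76.4 and 28.9 CPM in the JB uni1PN embryos. JB 2PN embryos had 0, 70.6 and 114 CPM, with 1 of 21 at 0, and the 3 JB 1PN embryos had 77.1, 99.5 and 90.3 CPM. The log2 difference between JB uni1PN and BJ uni1PN was -7.81 ± 0.86 for the level (SE, edgeR adjusted p = 1.3e-12) and -6.16 ± 0.45 relative to Rps13 (SE, edgeR adjusted p = 2.33e-24), and without JB uni1PN embryos 1 and 2 it was -7.02 and -6.30. Relative to Rps13, uni1PN against 2PN embryos differed by 1.39 ± 0.14 within BJ (SE, edgeR adjusted p = 1.01e-15) and by -4.66 ± 0.44 within JB (SE, edgeR adjusted p = 9.07e-17). The value over both crosses was 0.80 ± 0.22 (SE, edgeR adjusted p = 0.00341), and limma on log ratios gave -0.26.

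Between uniparental embryos of the 2 crosses, copies differed in both directions. In JB uni1PN against BJ uni1PN embryos 27 of 91 copies were lower and 5 higher, where 21.3% of all rows were lower, 9.54% higher (30.9% in either direction), and the medians were -0.94 for the copies and -0.72 for all rows. With the 9 copies at 0 in every embryo of 1 of the groups put at the bound that a floor of 3 counts over the group gives, and 1 more left out, the copies' median was -0.92. Without JB uni1PN embryos 1 and 2, 8 copies were lower and 8 higher. Relative to the parent, 18 of 91 copies were higher and 12 lower, where 34.8% of the 227 pairs differed (20.7% higher, 14.1% lower), and 19 and 9 without those embryos. Limma on log ratios called 44 higher and 10 lower.

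Some copies had no count in any JB uni1PN embryo. Rpl23a-ps4, a copy of the large-subunit gene Rpl23a at chr2:132662232-132662746, had 0 CPM in all 4 JB uni1PN embryos, against 4.04, 17.6 and 24.3 CPM (lowest, median, highest) in BJ uni1PN embryos. With 3 counts over the group as the floor, it was at least 49.5-fold lower in JB uni1PN embryos (edgeR adjusted p = 3.08e-08, and 0.000637 without embryos 1 and 2). Most of the counts behind this floor were in embryos 1 and 2, and the bound was 30.5-fold without embryo 1, 31.8-fold without embryo 2 and 12.8-fold without both. Rpl23a had 0, 1.09, 66.3 and 26.6 CPM in JB uni1PN embryos 1, 2, 3 and 7, so 2 of the 4 embryos had the parent at or near 0 as well. On the same floor Rpl26-ps6 was at least 38.1-fold lower in JB uni1PN than in BJ uni1PN embryos (edgeR adjusted p = 0.000147), Rpl9-ps2 at least 20.8-fold (edgeR adjusted p = 0.00858) and Rps19-ps8 at least 20.6-fold (edgeR adjusted p = 0.000306). Without embryo 1 these 3 bounds were 23.5-fold, 12.8-fold and 12.7-fold, without embryo 2 they were 24.4-fold, 13.3-fold and 13.2-fold, and without both 9.82-fold, 5.37-fold and 5.3-fold. All 3 were at 0 in all 4 JB uni1PN embryos, and Rpl9-ps2 did not pass without embryos 1 and 2 (edgeR adjusted p = 0.159). They were also often at 0 in other JB embryos. Rpl9-ps2 was at 0 in 3 of 3 JB 1PN and 18 of 21 JB 2PN embryos, Rps19-ps8 in 1 of 3 and 11 of 21, and Rpl26-ps6 in 1 of 3 and 7 of 21, while Rpl23a-ps4 had a count in all of them.

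Rpl17-ps3, a copy of the large-subunit gene Rpl17, was low but not missing. It had 3.18, 3.12, 1.30 and 0.998 CPM in JB uni1PN embryos 1, 2, 3 and 7, against 5.47, 10.6 and 18.6 CPM in BJ uni1PN embryos, while Rpl17 had 249, 190, 78.7 and 19.5 CPM in the JB uni1PN embryos and a median of 26.7 CPM in BJ uni1PN embryos. Relative to Rpl17 the log2 difference was -4.86 ± 0.67 (SE, edgeR adjusted p = 6.28e-10), and -4.37 without embryos 1 and 2. Rpl10-ps3, a copy of Rpl10, was at 0, 0, 1.18 and 1.17% of its parent in JB uni1PN embryos 1, 2, 3 and 7 and at 5.62 ± 1.26% in BJ uni1PN embryos (SD), a log2 difference of -2.58 ± 0.52 (SE, edgeR adjusted p = 1.51e-05). Neither group overlapped the other in this percentage, whose highest JB uni1PN value was 1.18 and lowest BJ uni1PN value 3.94.

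On the opposite side were copies near 0 in BJ uni1PN embryos and parthenotes. Rps12-ps9, a copy of the small-subunit gene Rps12 inside Chmp1a (chr8:123206531-123207036), had 29.7, 17.6, 48.6 and 11.5 CPM in JB uni1PN embryos 1, 2, 3 and 7, against 0, 0.118 and 0.931 CPM (lowest, median, highest) in BJ uni1PN embryos, 4 of 8 at 0. Parthenotes had 0, 0.679 and 3.08 CPM, JB 2PN embryos 4.97, 12 and 39.4 CPM and BJ 2PN embryos 2.12, 5.03 and 9.30 CPM. Every JB uni1PN embryo was thus above every BJ uni1PN embryo, parthenote and BJ 2PN embryo. The log2 difference between JB uni1PN and BJ uni1PN was 6.28 ± 0.64 for the level (SE, edgeR adjusted p = 3.24e-14) and 4.96 ± 0.52 relative to Rps12 (SE, edgeR adjusted p = 1.24e-14), and without JB uni1PN embryos 1 and 2 it was 6.46 and 5.07.

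Rps15a-ps8, a copy of Rps15a at chr4:53791031-53791468, had no count in 8 of 8 BJ uni1PN embryos and in 28 of 31 parthenotes. It had 0, 0, 3.26 and 2.00 CPM in JB uni1PN embryos 1, 2, 3 and 7, 0, 1.60 and 6.23 CPM in JB 2PN embryos and 0, 1.36 and 3.61 CPM in BJ 2PN embryos. On a floor of 3 counts over the group it was at least 13-fold lower in BJ uni1PN than in BJ 2PN embryos and at least 6.51-fold higher in JB uni1PN than in BJ uni1PN embryos. The second bound rests on 7 counts, 5 of them in JB uni1PN embryo 3, and was 2.2-fold without embryo 3, 10.6-fold without embryo 1, 10.1-fold without embryo 2 and 25.2-fold without embryos 1 and 2. In parthenotes against BJ 2PN embryos it fell by 4.79 on the log2 scale (edgeR adjusted p = 2.95e-19), and by 4.49 relative to Rps15a (edgeR adjusted p = 1.29e-22).

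Rpl21-ps15 lies on X inside Wnk3, a kinase gene (chrX:151215134-151215688), and its parent Rpl21 encodes a large-subunit protein. The copy had 0, 0, 28.1 and 16 CPM in JB uni1PN embryos 1, 2, 3 and 7 and 0.318, 2.19 and 4.14 CPM (lowest, median, highest) in BJ uni1PN embryos. Parthenotes had 0, 1.51 and 3.61 CPM, JB 2PN embryos 1.85, 28.1 and 53.7 CPM and BJ 2PN embryos 10.9, 27.9 and 54.9 CPM. JB uni1PN embryos 3 and 7 were in the range of 2PN embryos, and embryos 1 and 2 had almost no Rpl21 either (0.133 and 0.284 CPM). In parthenotes the copy fell by 4.40 on the log2 scale (edgeR adjusted p = 4.9e-27), and by 3.64 relative to Rpl21 (edgeR adjusted p = 4.23e-32), with no overlap between the groups. The host Wnk3 had a log2 difference of -0.27 in parthenotes (edgeR adjusted p = 0.424). Between JB uni1PN and BJ uni1PN embryos the copy's difference relative to Rpl21 was 3.93 ± 0.51 (SE, edgeR adjusted p = 1.02e-10), but for its level limma voom gave -0.14 where edgeR gave 2.34.

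Some more abundant copies showed the same contrast in smaller measure, mostly through their share of the parent, while others went the other way. Among the 23 copies of at least 10 CPM, 7 were higher and 4 lower relative to the parent in JB uni1PN against BJ uni1PN embryos. In level, 3 of these were higher and 9 lower. Named here are copies on the higher side. Rpl34-ps1 was 32.3, 50, 39.6 and 63.6% of Rpl34 in JB uni1PN embryos 1, 2, 3 and 7 and 6.33 ± 1.75% in BJ uni1PN embryos (SD), a log2 difference of 2.83 ± 0.37 (SE, edgeR adjusted p = 7.34e-11). Rps13-ps1 was 32.7, 25.3, 12.8 and 17.2% of Rps13 in JB uni1PN embryos 1, 2, 3 and 7 and 3.83 ± 0.834% in BJ uni1PN embryos (SD), a log2 difference of 2.56 ± 0.26 (SE, edgeR adjusted p = 4.41e-15). Rps19-ps6, inside the autophagy gene Tecpr2, was 25, 27 and 38.4% of Rps19 in JB uni1PN embryos 1, 3 and 7, the 3 that had Rps19, and 4.32 ± 0.920% in BJ uni1PN embryos (SD), a log2 difference of 2.79 ± 0.35 (SE, edgeR adjusted p = 3.31e-11). In these 3 copies the 2 groups did not overlap. They were named for abundance or a low p in a copy-over-parent comparison, and how many other pairs separate likewise is not given here. Rpl17-ps5 had 41.3, 35.4, 20.9 and 10.5 CPM in JB uni1PN embryos 1, 2, 3 and 7, against 1.92, 4.30 and 6.28 CPM in BJ uni1PN embryos, but Rpl17 was also higher there, so relative to the parent the copy did not pass (log2 difference 0.67 ± 0.45, SE, edgeR adjusted p = 0.258).

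**Figure D3:**
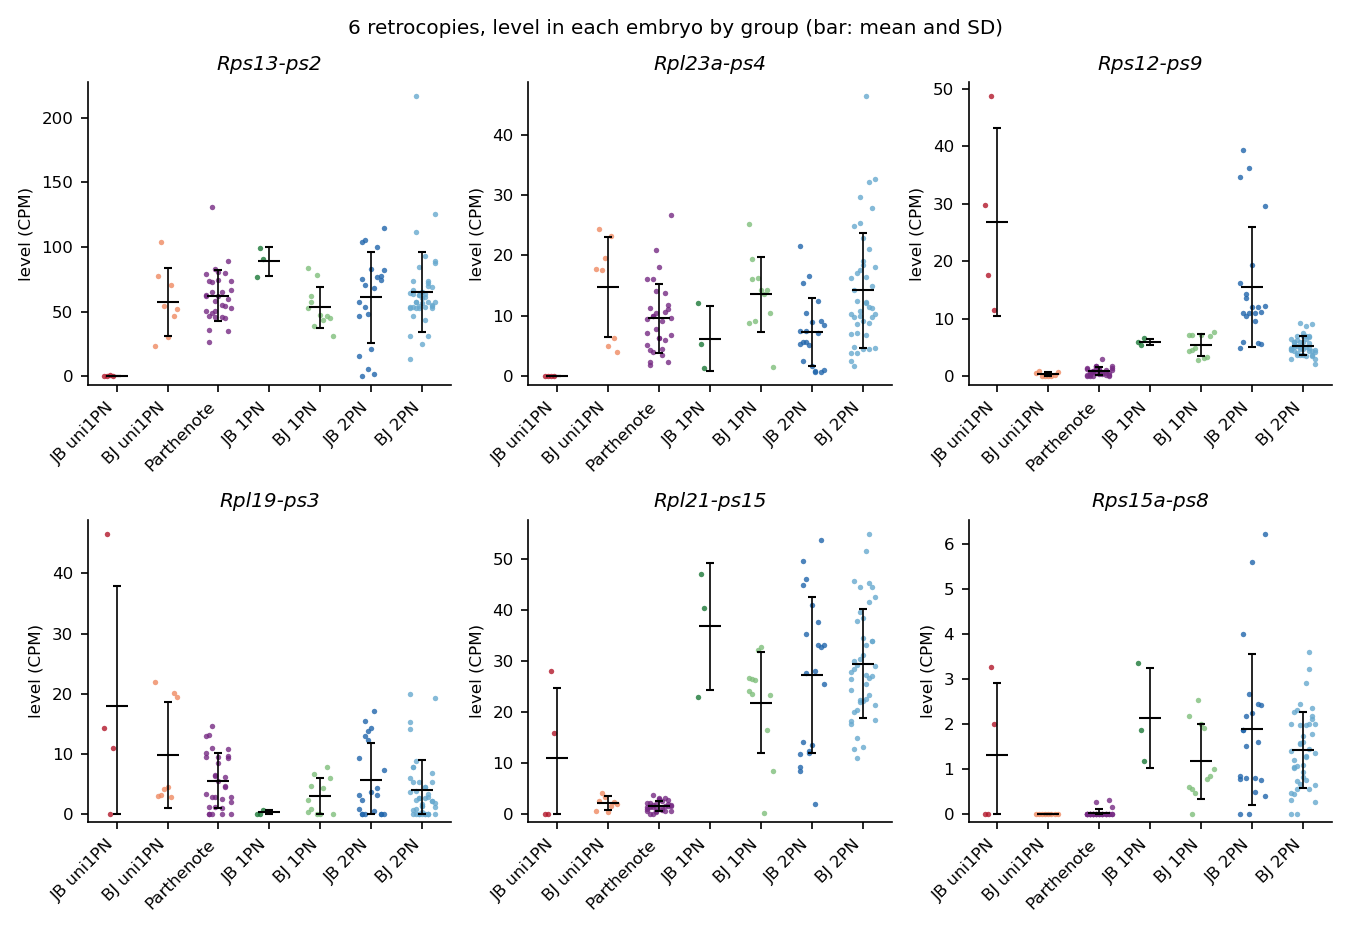
Level (CPM) of 6 copies in each embryo by group; points are embryos and bars the mean with 1 SD, drawn no lower than 0. Rps13-ps2 and Rpl23a-ps4 were at or near 0 in JB uni1PN embryos, and Rps12-ps9, Rps15a-ps8 and Rpl21-ps15 at 0 or low in BJ uni1PN embryos and parthenotes. Rps15a-ps8 and Rpl21-ps15 were also at 0 in JB uni1PN embryos 1 and 2.

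The difference between the crosses was tested directly, as the effect of uni1PN against 2PN in JB minus that in BJ. For the level 22 of 91 copies were lower and 4 higher in JB, where 13% of all rows were lower and 3.64% higher (16.6% in either direction), and without JB uni1PN embryos 1 and 2 there were 4 lower and 4 higher. Relative to the parent, 18 copies were higher and 7 lower in JB, where 18.5% of pairs were higher and 8.81% lower (27.3% in either direction), and 15 and 4 without those embryos. The comparison of crosses holds 4 JB uni1PN embryos, and 2 of them are the ones with few 2-cell markers. Reads of JF1/Ms sequence were placed on a genome of C57BL/6, and how many of them were lost or went to another copy was not tested. Within BJ, 35 copies fell and 0 rose in uni1PN against 2PN embryos (10.2% of all rows fell, 12.1% rose, 22.4% in all), and within JB 50 fell and 0 rose (20.7% of all rows fell, 11% rose, 31.7% in all). The count within JB was smaller when embryos with few 2-cell markers were left out. It was 31 lower and 0 higher without embryo 1, and 12 lower and 0 higher without embryos 1 and 2. A smaller group also makes a call harder, and this was not separated from the state of those embryos. Relative to the parent, 22 copies were higher and 12 lower within BJ (18.5% and 14.5% of pairs, 33% in all), and 13 were higher and 6 lower within JB (14.1% and 6.17% of pairs, 20.3% in all), or 5 higher and 3 lower without embryos 1 and 2.

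**Figure D4:**
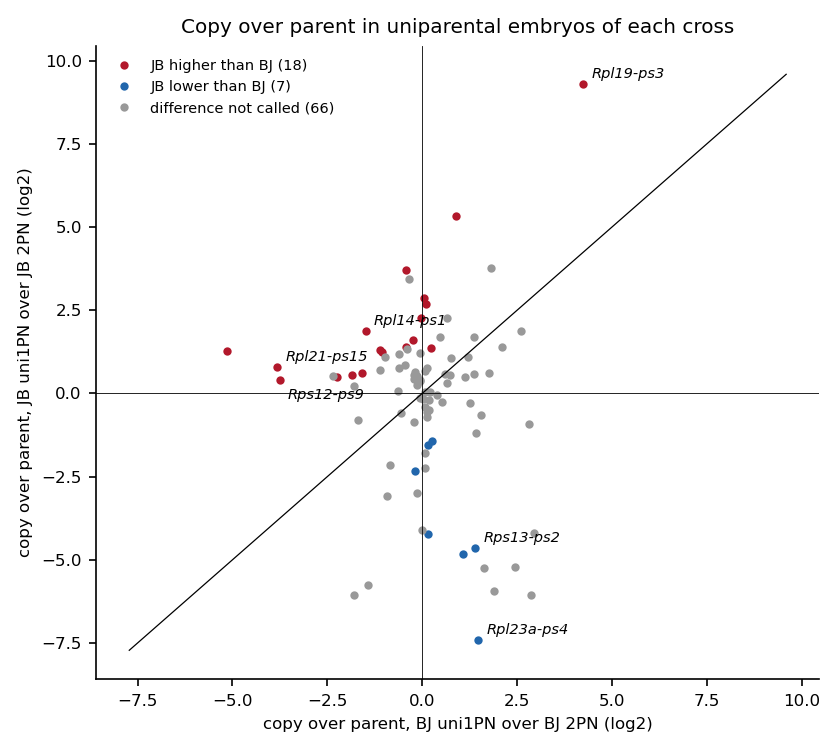
Log2 difference of the copy relative to its parent, JB uni1PN over JB 2PN (vertical axis) against BJ uni1PN over BJ 2PN (horizontal axis), for the 91 copies as fitted by edgeR. Colours mark copies whose effect was called higher (18) or lower (7) in JB; values of copies at 0 in a whole group are fitted values and no bounds.

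Copies of 1 parent could go different ways, although they share that parent as the denominator. Of the 45 parents 21 had a single copy among the 91. Of the other 24, 4 had copies both above and below the parent in uni1PN against 2PN embryos (Rpl19, Rpl23a, Rps15a and Rps19), 11 did in parthenotes against BJ 2PN embryos, 4 within BJ, 1 within JB and 4 in JB uni1PN against BJ uni1PN embryos. Rpl19, a large-subunit gene, had 4 copies among the 91. In uni1PN against 2PN embryos Rpl19 fell by 1.95 on the log2 scale (edgeR adjusted p = 3.11e-06). Relative to Rpl19, Rpl19-ps11 was 0.62 ± 0.12 higher (SE, edgeR adjusted p = 3.6e-05), Rpl19-ps1 1.14 ± 0.26 higher (SE, edgeR adjusted p = 0.000331), and Rpl19-ps6 had a log2 difference of -1.80 ± 0.36 (SE, edgeR adjusted p = 5.23e-05). These 3 copies are the ones named above for a fraction in most of their values.

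Rpl19-ps3, the fourth copy of Rpl19, stood apart from them, with a fraction in 2.15% of its values. It had 14.3, 46.6, 0 and 11 CPM in JB uni1PN embryos 1, 2, 3 and 7 and 2.86, 4.29 and 21.9 CPM (lowest, median, highest) in BJ uni1PN embryos. JB 2PN embryos had 0, 3.06 and 17.2 CPM, 6 of 21 at 0, and BJ 2PN embryos 0, 2.32 and 20 CPM, 11 of 43 at 0. The level did not pass the test (log2 difference 1.38 ± 0.60, SE, edgeR adjusted p = 0.0634), and the ranges overlapped. Relative to Rpl19, which had 0, 3.55, 112 and 9.48 CPM in the JB uni1PN embryos, it was 7.06 ± 0.78 higher (SE, edgeR adjusted p = 7.58e-12), and 4.04 higher without JB uni1PN embryos 1 and 2.

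The reciprocal crosses were also set against each other in 2PN embryos. In JB 2PN against BJ 2PN embryos 9 of 91 copies were lower and 3 higher, where 21.1% of all rows were lower and 19.1% higher (40.2% in either direction), and DESeq2 called 14 lower and 5 higher. Relative to the parent 12 were lower and 9 higher, where 23.3% of pairs differed (11% lower, 12.3% higher). Rpl31-ps17, a copy of Rpl31, had 0, 0.267 and 8.72 CPM (lowest, median, highest) in JB 2PN embryos, 10 of 21 at 0, against 1.23, 6.60 and 29 CPM in BJ 2PN embryos. The log2 difference of its level was -2.58 ± 0.46 (SE, edgeR adjusted p = 2.21e-06), and the difference relative to Rpl31 was -2.92 ± 0.48 (SE, edgeR adjusted p = 4.05e-07). Rps12-ps9 was higher in JB 2PN embryos, by 1.47 ± 0.24 for the level (SE, edgeR adjusted p = 3.81e-07) and 0.79 relative to Rps12 (edgeR adjusted p = 0.000943). Without the 6 libraries under 1500000 counts, 3 copies were lower and 4 higher in level, 12 lower and 2 higher relative to the parent, and the ratio of Rps12-ps9 no longer passed (edgeR adjusted p = 0.0515).

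The 2 remaining comparisons called almost no copy. In 1PN against 2PN embryos 0 of 91 copies rose or fell, where 0.263% of all rows were called (0.228% higher, 0.0351% lower). The lowest adjusted p of edgeR was 0.822, and at an unadjusted p under 0.05 there were 0 higher and 2 lower. DESeq2, limma voom and the newer edgeR test also called 0 there. Relative to the parent 0 copies differed (0.00% of pairs, lowest edgeR adjusted p = 0.857), with 1 higher and 2 lower at an unadjusted p under 0.05 and 0 called by limma on log ratios. Within the crosses edgeR also called 0 copies, where 0.607% of all rows were called in BJ (0.582% higher, 0.0246% lower) and 0.0369% in JB (0.0205% higher, 0.0164% lower). At an unadjusted p under 0.05 there were 1 higher and 1 lower in BJ, and 0 and 1 in JB. In BJ uni1PN embryos against parthenotes 0 copies differed in level by edgeR (1.87% of all rows, 1.33% higher and 0.541% lower, lowest adjusted p = 0.106), with 2 higher and 8 lower at an unadjusted p under 0.05. DESeq2 called 1 and limma voom 2, all lower. Relative to the parent 1 copy was called, in the higher direction, where 3.08% of pairs were (2.64% higher, 0.441% lower). Limma on log ratios called 1 copy there too, but in the lower direction. This comparison shares its BJ uni1PN embryos with the one between crosses.

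Within 1 group, copies and parents mostly varied together. Over the 43 BJ 2PN embryos, Pearson's r of log2(CPM + 1) of copy and parent had a median of 0.44 over the 91 copies and ran between -0.50 and 0.92, with 79 above 0. By permutation with adjustment over 227 pairs, 53 of the 91 copies (58.2%) were positively and 2 negatively related, where 66.1% of all 227 pairs were positively and 3.08% negatively related. Spearman's rho gave 51 positive calls, and without the 2 embryos farthest from the parent's median r had a median of 0.37 with 77 above 0. The highest values were those of Rpl14-ps1 (r = 0.92, rho = 0.92), Rpl19-ps11 (r = 0.91, rho = 0.91), Rps16-ps2 (r = 0.90, rho = 0.92) and Rps13-ps2 (r = 0.87, rho = 0.78), each with an adjusted permutation p of 2.67e-05 for r, from 1e-05 before adjustment, the smallest that these permutations can give. Copy and parent of a point come from the same library, and the part of shared reads and depth in r was not tested.

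Some copies did not follow their parent. Rps12-ps9 (r = -0.04, rho = -0.08), Rpl36-ps8 (r = -0.03, rho = 0.00) and Rpl31-ps17 (r = 0.01, rho = 0.03) were near 0, and for Rpl36-ps8 the row with complementary fractions was Gm5745 and not Rpl36. Rpl19-ps3 was negatively related to Rpl19 (r = -0.50, rho = -0.52, adjusted permutation p = 0.00126), and r was -0.39 without the 2 farthest embryos. Rpl27-ps1 had r = -0.33 (adjusted permutation p = 0.0473), which became -0.10 without the 2 farthest embryos and therefore rests on them. For the other 136 -ps copies the same median was 0.55.

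**Figure D5:**
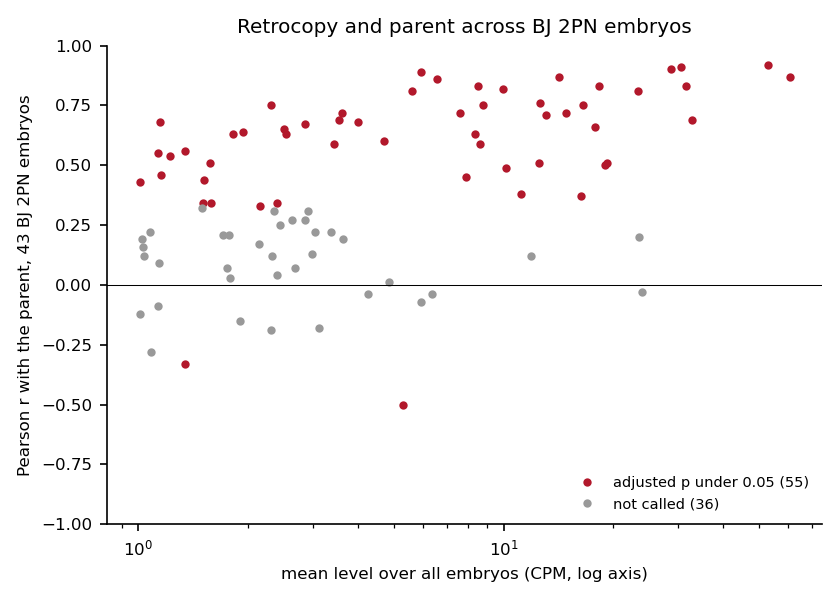
Pearson's r between each of the 91 copies and its parent over the 43 BJ 2PN embryos (vertical axis) against the copy's mean level over all embryos (horizontal axis, CPM, log axis). Coloured points passed an adjusted permutation p under 0.05; most lie above 0, and Rpl19-ps3 is the lowest at -0.50.

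The genes that hold copies were compared in the same tests, for 26 copies with a tested host. In parthenotes against BJ 2PN embryos copy and host were both called the same way in 5 cases and in opposite directions in 2. In uni1PN against 2PN embryos these counts were 2 and 3. Of the 26 copies 14 were called lower and 1 higher in parthenotes, and 14 and 0 in uni1PN embryos. Over all rows tested, 44.4% and 34.1% were called in the 2 comparisons. The counts of pairs alone thus do not show that copy and host moved together. Values are given here for 2 of the pairs. Rpl14-ps1 is inside Trpm4, which encodes a cation channel. The copy had 5.31, 7.53, 56.5 and 3.99 CPM in JB uni1PN embryos 1, 2, 3 and 7, 6.66, 20.4 and 32.1 CPM in BJ uni1PN embryos, 2.31, 16.2 and 66.2 CPM in parthenotes and 5.54, 82.4 and 140 CPM in BJ 2PN embryos (lowest, median, highest). In parthenotes the copy fell by 2.36 on the log2 scale (edgeR adjusted p = 3.64e-15), while Trpm4 rose by 3.27 (edgeR adjusted p = 4.32e-05). Trpm4 was low and uneven, at 2.9 ± 5.71 CPM in parthenotes and 0.205 ± 0.656 CPM in BJ 2PN embryos (SD). Rps13-ps4, the copy printed in part above, lies in Taf1c. Taf1c fell by 1.62 in uni1PN embryos (edgeR adjusted p = 0.0148), where Rps13-ps4 had a log2 difference of -0.62 ± 0.43 (SE, edgeR adjusted p = 0.259).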

How the data were processed

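RNA of single 2-cell embryos was amplified with SMART-Seq v4 and made into libraries with Nextera XT, per the labels' protocols. HISAT2 2.0.5, featureCounts 2.0.0 and GRCm38 are named in the submitters' processing notes. The authors deposited 1 table of estimated counts per gene, not all of them whole. Which annotation and strand setting were used, and how shared reads were divided, is not given in the sources used. Of 125 libraries, 4 were left out (1 dead and 3 of low quality by the labels), and the rest kept. Symbols were matched to RefSeq's GRCm38.p6 table for positions.

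Counts were rounded to whole numbers and tested with edgeR 4.0.16 (quasi-likelihood, TMM, filterByExpr, R 4.3.3), with Benjamini-Hochberg adjustment over all rows tested. For uni1PN and 1PN against 2PN the fit held the 6 hybrid groups with the cross as an added term, and for all other comparisons the means of the 7 groups. For copy over parent the log of the parent's count plus 0.5 replaced the library size over 227 pairs. Correlations used log2(CPM + 1) and permutations of the embryos. Copies named with values were the 12 most abundant, up to 4 of lowest p per direction and copy-over-parent comparison, those with a lowest group mean under 0.1 of the highest, and 3 on each side of the minimum. Parents and hosts were named beside them. Alternatives used DESeq2 1.42.0, limma 3.58.1, other filters and rounding, and fewer embryos. The scripts (python 3.11.15, numpy 2.4.6, pandas 2.3.3, scipy 1.17.1) were tested on simulated data. Members and lists were chosen with earlier results of these data known. Some single copies are counted in the totals but not reported by name here.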

Additional observations from a re-analysis of the deposited data

Results flagged for a closer look

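Among 98 groups of values of 49 named copies, 20 held an embryo far from the rest of its group by Dixon's test, and 18 of them are given here. For normally spread values chance gives about 1 group in 20. A group with a count in only 1 embryo can be flagged however small that count, so this rate does not hold there. The JB uni1PN values under 1 CPM below rest on very few reads. In the JB uni1PN group, embryo 3 was the high one for Rpl14-ps1 (56.5 CPM), Rpl3-ps1 (13.4 CPM), Rps15a-ps3 (5.22 CPM), Rpl27-ps1 (1.96 CPM), Rpl19-ps1 (1.31 CPM), Rpl21-ps8 (0.653 CPM) and Rpl23a-ps2 (0.653 CPM). Embryo 3 is one of the 2 JB uni1PN embryos with many 2-cell markers. Embryo 1 of that group was the high one for Rpsa-ps12 (0.265 CPM) and Rpl10-ps2 (0.133 CPM) and embryo 7 for Rpl13-ps6 (0.499 CPM).

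In the BJ uni1PN group, embryo 14 was the high one for Rpl19-ps11 (48.4 CPM), Rps10-ps2 (24.5 CPM) and Rps26-ps1 (23.1 CPM). Embryo 22 was the high one for Rpl26-ps6 (37.2 CPM), Rpl30-ps6 (15 CPM) and Rpsa-ps12 (9.91 CPM). Embryo 10 was the high one for Rpl7a-ps7 (8.87 CPM) and embryo 18 for Rpl36-ps1 (1.77 CPM).

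For 18 of the 49 named copies, the log2 effect of uni1PN against 2PN relative to the parent differed between the crosses, as tested by an interaction in edgeR. In JB minus BJ it was higher for Rps15a-ps8 (6.41), Rpl19-ps3 (5.05), Rpl21-ps15 (4.60), Rpl32-ps (4.45), Rps12-ps9 (4.17) and Rps18-ps3 (4.12). It was also higher for Rpl14-ps1 (3.37), Rps15a-ps3 (2.72), Rps26-ps1 (2.41), Rpl34-ps1 (2.40), Rps13-ps1 (2.27) and Rps19-ps6 (2.20). In JB minus BJ it was lower for Rpl23a-ps4 (-8.89), Rps13-ps2 (-6.05), Rpl13-ps6 (-5.90), Rpl17-ps3 (-4.37), Rpl17-ps10 (-2.14) and Rpl10-ps3 (-1.66). The values of Rps15a-ps8, at 0 in all BJ uni1PN embryos, and of Rpl23a-ps4, at 0 in all JB uni1PN embryos, are fitted values and no bounds. Some parents were at or near 0 as well. Rpl19 had 0 and 3.55 CPM in JB uni1PN embryos 1 and 2. Without them, Rpl19-ps3 over Rpl19 differed by 0.61 between JB uni1PN and BJ uni1PN embryos (edgeR adjusted p = 0.832). Rps18 had 0, 0.284, 3.26 and 31.9 CPM in JB uni1PN embryos 1, 2, 3 and 7. The same difference for Rps18-ps3 was 3.32 without embryos 1 and 2.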

How the results depend on the processing

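Depth limits copies of a few counts, and 4 JB uni1PN embryos limit every comparison that uses them. Of the values of named copies under alternatives, 1743 kept their direction and side of the threshold, 162 kept the direction and lost the call, and 5 turned. Those 5 were, in JB uni1PN against BJ uni1PN embryos, Rpl21-ps15 level in limma voom (-0.14), and relative to the parent Rps19-ps8 (0.79) and Rpl21-ps8 (0.24) in limma on log ratios and Rps15a-ps3 without replicate 3 (-3.40, where leaving out 1 replicate gave up to 3.82), and in uni1PN against 2PN embryos Rps13-ps2 relative to its parent in limma on log ratios (-0.26). The cause was not tested.

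Counts of called copies moved as follows. In JB 2PN against BJ 2PN embryos 12 became 19 in DESeq2 and 7 without libraries under 1500000 counts. In JB uni1PN against BJ uni1PN embryos the level count of 32 became 16 without embryos 1 and 2, and the copy-over-parent count of 30 became 54 (44 higher, 10 lower) in limma on log ratios. Without embryos 1 and 2, JB uni1PN against JB 2PN embryos had 12 level calls in place of 50 and 8 copy-over-parent calls in place of 19, and the difference of the uni1PN effect between crosses 8 level calls in place of 26 and 19 copy-over-parent calls in place of 25. In BJ uni1PN embryos against parthenotes the level count of 0 became 1 in DESeq2, 2 in limma voom and 2 in the newer edgeR test, and the copy-over-parent count of 1 became 2 with counts cut to the whole number below and 2 without libraries under 1500000 counts. Leaving out 1 JB uni1PN replicate gave 45 to 54 level calls and 34 to 40 copy-over-parent calls for uni1PN against 2PN, 26 to 38 and 27 to 32 for JB uni1PN against BJ uni1PN, 31 to 55 and 13 to 18 for JB uni1PN against JB 2PN, and 18 to 34 and 22 to 25 for the difference between crosses. With DESeq2 size factors in edgeR, uni1PN against 2PN had 46 calls. Median r was 0.45 with log2(CPM + 0.1).

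Same-numbered embryos of 2 groups had median correlations between -0.06 and 0.05, with single pairs between -0.25 and 0.23. Whether such embryos share more than a number cannot be told from these values. The planned replicate block in edgeR was not run, and limma voom with a replicate block gave 58, 0, 52, 12, 30 and 0 level calls for uni1PN and 1PN against 2PN, parthenotes against BJ 2PN, JB 2PN against BJ 2PN, JB uni1PN against BJ uni1PN and BJ uni1PN against parthenotes. That fit, the low-depth exclusion, the newer edgeR test and the exclusions within JB and for the difference between crosses were chosen after seeing the data.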
